A study of Mus musculus with 2 samples.

Results

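The genes described here are 38 genes of glycolysis, the pentose phosphate pathway and the HIF1A pathway, among 55418 annotated gene symbols, of which 21992 are protein coding. They were chosen by a list of symbols, and all 38 were found in the deposited tables, as 39 gene IDs because Aldoa has 2. RNA came from the nuclei of bone marrow-derived macrophages of C57BL/6J mice. Ribosomal RNA was depleted before total RNA sequencing. All cells received Lipid A, the endotoxin moiety that the receptor TLR4 detects, at 100 ng/ml for 12 h. After 12 h of washout they met the same dose again for 60 min. The 2 libraries form 1 group, replicate 1 (made from 1 µg of RNA) and replicate 2 (made from 500 ng). Macrophages that were left untreated or stimulated only once were not analysed here, so nothing below is a response to Lipid A. Submitters number them as biological replicates under a shared donor identifier, and age and sex were not recorded. Nothing says whether separate animals were used, and part of their spread may be technical.

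Glycolysis splits glucose into pyruvate in the cytosol and yields ATP and NADH. Glucose enters through transporters of the SLC2A family and is held in the cell by hexokinases. Phosphofructokinase sets much of the flux, lactate dehydrogenase turns pyruvate into lactate, and monocarboxylate transporters carry lactate out. The pentose phosphate pathway branches off after hexokinase and makes NADPH and ribose 5-phosphate. HIF1A is a transcription factor whose protein is hydroxylated by prolyl hydroxylases (the Egln genes) when oxygen is present and is then degraded. It drives many glycolytic genes. Macrophages activated through TLR4 are known for high glycolysis and for stabilised HIF1A protein, and NADPH feeds their oxidase. Several of these enzymes are encoded by paralogs, called isoenzymes, that differ in tissue use and regulation, and Pkm makes its M1 and M2 enzymes from the same gene by using either of 2 exons.

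The sequences below belong to the findings on transcript choice. The first pair shows the mutually exclusive exons of Pkm on mm10, both on the plus strand and both 167 bases long. They are the M1 exon at chr9:59675029-59675195 and the M2 exon at chr9:59675568-59675734. Capitals mark the 64 positions at which they differ, and 61.7% of positions hold the same base.
Pkm M1 exon: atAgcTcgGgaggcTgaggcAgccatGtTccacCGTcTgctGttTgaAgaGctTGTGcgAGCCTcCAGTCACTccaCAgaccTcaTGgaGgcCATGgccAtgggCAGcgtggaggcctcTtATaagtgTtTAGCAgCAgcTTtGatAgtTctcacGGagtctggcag
Pkm M2 exon: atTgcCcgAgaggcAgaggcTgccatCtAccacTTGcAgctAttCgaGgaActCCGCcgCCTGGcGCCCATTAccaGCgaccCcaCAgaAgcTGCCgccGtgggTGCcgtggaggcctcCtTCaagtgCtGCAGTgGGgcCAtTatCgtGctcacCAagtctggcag

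Another pair shows where a prominent transcript of each of the 2 most abundant genes departs from an annotated coding form (Hk3-201 and Slc2a6-201). Transcript Hk3-204 ends an exon early, at an upstream splice site, and leaves out the 56 bases at chr13:55014427-55014482 (minus strand) of a 120-base exon. Its number of missing bases is not a multiple of 3, with a remainder of 2. Capitals mark the 2 bases next to the splice site of the shorter form. Transcript Slc2a6-205 holds a 285-base intron of the coding transcript, at chr2:27023250-27023534 (minus strand), whose first 2 and last 2 bases are in capitals.
Hk3 bases left out: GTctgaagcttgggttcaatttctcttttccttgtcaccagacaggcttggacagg
Slc2a6 held intron: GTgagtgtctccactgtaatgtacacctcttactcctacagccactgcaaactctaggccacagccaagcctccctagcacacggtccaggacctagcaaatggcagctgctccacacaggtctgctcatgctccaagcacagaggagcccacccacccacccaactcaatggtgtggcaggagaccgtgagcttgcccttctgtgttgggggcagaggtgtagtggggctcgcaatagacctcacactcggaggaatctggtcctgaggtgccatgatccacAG

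Macrophage RNA was plain in both libraries. All 10 macrophage markers reached 10 TPM in both, with medians of 217.5 and 86.7 TPM in replicates 1 and 2. TPM is a share of transcripts, corrected for length and scaled to a fixed total. Of 6 neutrophil, 6 lymphoid and 6 stromal and endothelial markers 0 reached 1 TPM in both libraries. Of 6 erythroid and megakaryocyte markers 1 did, Pf4, at 23.3 and 17.5 TPM. The nuclear RNA Malat1 stood at 20270 and 18932 TPM. Annotated genes held 23630328 expected counts in replicate 1 and 15687634 in replicate 2, of which the 38 genes held 60682 and 33541. Nuclear-encoded protein-coding genes of at least 1 TPM were mostly lower in TPM in replicate 2, with a median log2 ratio of -0.47 (replicate 2 over replicate 1). The SDs of TPM below include that shift. The fixed total of TPM is shared with all other RNA, so the levels below depend on how much that RNA takes. Rescaled to nuclear-encoded protein-coding genes only, the median level of the 38 genes was 63.3 TPM in place of 14.7 TPM.

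Most of the pathway was present in nuclear RNA. Of the 38 genes, 31 (81.6%) reached 1 TPM in both libraries, against 39.9% of all protein-coding genes. At 10 TPM the share was 55.3% (21 genes) against 14.9%. Only Hk3 (2.63% of the 38) reached 100 TPM in both libraries, against 1.43% of protein-coding genes. The median over the 38 genes was 17.0 TPM (replicate 1) and 12.4 TPM (replicate 2), or 14.7 ± 3.22 TPM (SD, n = 2). Protein-coding genes that reached 1 TPM in both libraries had medians of 9.20 and 6.57 TPM. Together the 38 genes held 0.397% and 0.369% of nuclear-encoded protein-coding TPM, 0.383 ± 0.0198% (SD, n = 2). Hk3 and Slc2a6 alone made up 38.2% of this in replicate 1 and 28.9% in replicate 2. In bulk RNA, a low level in every cell and a high level in few cells cannot be told apart.

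**Figure D1:**
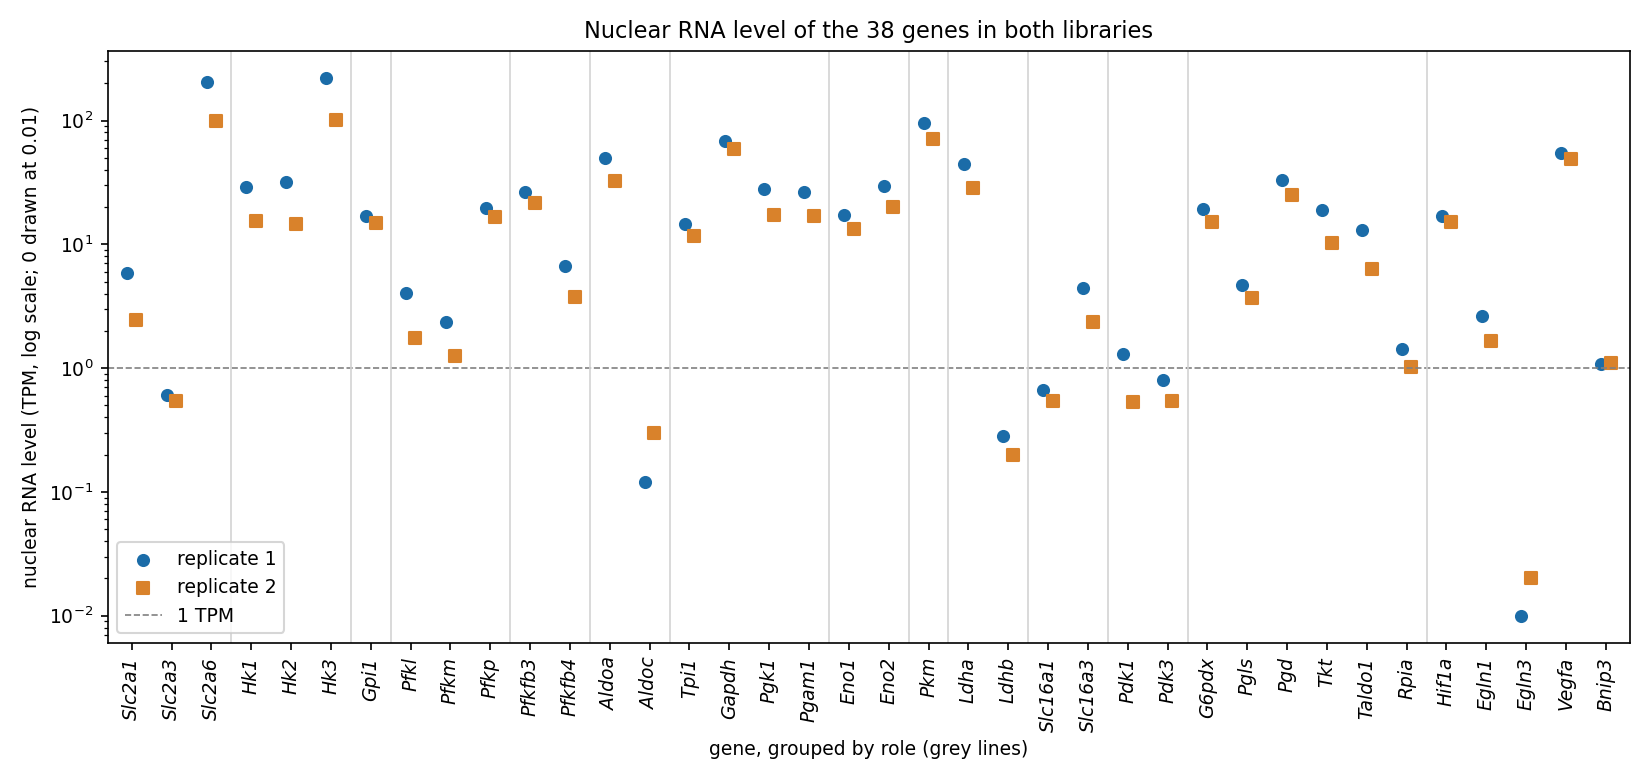
Nuclear RNA level (TPM, log scale) of the 38 genes in replicate 1 (circles) and replicate 2 (squares), ordered by role, with a dashed line at 1 TPM; a value of 0 is drawn at 0.01. Hk3 and Slc2a6 are the highest in both libraries, and 31 genes lie at or above the line in both.

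Among glucose transporters Slc2a6, which encodes a lysosomal hexose transporter (GLUT6), stood far above the others. Slc2a6 (ENSMUSG00000036067.12, chromosome 2, 27021363 to 27027998) had 205.6 TPM in the first library and 99.4 TPM in the other. Slc2a1, the widely used glucose transporter GLUT1, had 5.83 and 2.43 TPM, and Slc2a3, the high-affinity GLUT3, had 0.61 and 0.54 TPM. Of the TPM of these 3 genes Slc2a6 held 97.0 ± 0.0951% (SD, n = 2). Its level was 35.3 times that of Slc2a1 in replicate 1 and 40.9 times in replicate 2. The order of the 3 was the same in both libraries.

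Hexokinases phosphorylate glucose and so begin its use. Hk3 (ENSMUSG00000025877.14, chromosome 13, 55005985 to 55021385), a hexokinase of blood cells, reached 222 TPM in replicate 1 and 101 in replicate 2, the highest of the 38 genes in each. Hk2, the isoenzyme usually linked to induced glycolysis, had 31.6 and 14.6 TPM, and Hk1, the widespread isoenzyme, 29.1 and 15.3 TPM. Hk3 held 77.9 ± 0.922% of hexokinase TPM (SD, n = 2). By expected counts, with no correction for length, it held 71.0%. Hk1 and Hk2 were close and changed order between the libraries. The second quantifier, which estimated transcripts from the reads, also put Hk3 (101 and 82.5 TPM) and Slc2a6 (73.7 and 65.6 TPM) first and second of the 38 genes by mean level. Hk3 overlaps Unc5a on the opposite strand, to which 503 and 206 expected counts were assigned, against 13316 and 5265 for Hk3.

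Phosphofructokinase commits sugar to glycolysis, and its platelet-type gene Pfkp led. Pfkp had 19.8 and 16.5 TPM, the liver-type Pfkl 4.07 and 1.75 TPM and the muscle-type Pfkm 2.37 and 1.25 TPM. Pfkm lies opposite Senp1, which had 1282 and 939.5 expected counts against 118 and 77 for Pfkm. Pfkp held 80.1 ± 6.48% of the sum (SD, n = 2). The bifunctional enzymes PFKFB3 and PFKFB4 make and break fructose 2,6-bisphosphate, which activates phosphofructokinase. Pfkfb3 had 26.5 and 21.4 TPM and Pfkfb4 6.70 and 3.73 TPM, so Pfkfb3 held 82.5 ± 3.77% of their sum (SD, n = 2). In both steps the leading gene was the same in each library.

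The middle and lower steps of glycolysis, several of them run by a lone enzyme gene, lay mostly between 10 and 100 TPM. Gpi1, which turns glucose 6-phosphate into fructose 6-phosphate, had 17.1 and 14.9 TPM. Aldoa, the main aldolase, had 50.1 and 32.3 TPM, whereas the brain-type Aldoc had 0.12 and 0.30 TPM on 7 and 17 counts. Aldoa thus held 99.4 ± 0.482% of aldolase TPM (SD, n = 2). Tpi1, which interconverts the triose phosphates, had 14.6 and 11.6 TPM.

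Gapdh (chromosome 6, 125161715 to 125166467), which makes the first NADH of the pathway, had 68.1 and 58.9 TPM. This level is uncertain because 179 annotated near-identical copies, 167 of them processed pseudogenes, can take its reads. The copies held 20.4% of the expected counts on Gapdh and its copies in replicate 1 and 26.1% in replicate 2, and 36.8% and 36.7% by the second quantifier. The ATP-making kinase gene Pgk1 had 27.9 and 17.4 TPM, and its 4 copies held 5.65% and 3.62% of expected counts. The mutase gene Pgam1 had 26.2 and 16.8 TPM. In all, 12 of the 38 genes had at least 1 copy with 90% or more identity.

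Enolase makes phosphoenolpyruvate, and here the gene usually named for neurons was above the widespread form. Eno2 (ENSMUSG00000004267.16, chromosome 6, 124760053 to 124769673) had 29.8 and 19.9 TPM and Eno1 17.3 and 13.3 TPM. Eno2 held 61.6 ± 2.40% of their TPM (SD, n = 2), and 63.1% by the second quantifier. On protein-coding transcripts alone it held 44.1% in the transcript table, below Eno1, but the second quantifier kept Eno2 slightly above. Eno1 has 7 near-identical copies, which held 1.21% and 3.58% of the expected counts on Eno1 and its copies (5.97% and 5.59% by the second quantifier). Pkm (ENSMUSG00000032294.17, chromosome 9, 59656368 to 59679375), the pyruvate kinase of most tissues, followed Hk3 and Slc2a6 in mean level with 95.3 and 70.5 TPM. The unclassified gene Gm49759 lies within the same stretch on the same strand and had 580 and 407 expected counts, against 5310 and 3599 for Pkm. Hk3 exceeded Pkm by 2.33 times in replicate 1 but by 1.44 times in replicate 2.

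At the fate of pyruvate, Ldha, which favours lactate formation, had 44.9 and 28.3 TPM, and Ldhb, the heart-type subunit, 0.28 and 0.20 TPM on 8 and 3 counts. Ldha held 99.3 ± 0.0585% of their TPM (SD, n = 2). The lactate transporter genes among the 38 had lower levels. Slc16a3, the exporter MCT4, had 4.41 and 2.36 TPM and Slc16a1, the transporter MCT1, 0.67 and 0.54 TPM. Pyruvate dehydrogenase kinases inhibit pyruvate dehydrogenase, which turns pyruvate into acetyl-CoA in mitochondria. Their genes among the 38 were low, with Pdk1 at 1.30 and 0.53 TPM and Pdk3 at 0.80 and 0.54 TPM. Pdk1 held 61.9% of their TPM in replicate 1 and 49.5% in replicate 2, so which of the 2 led was not settled. Over the 9 steps with several of the 38 genes, the leading gene among these was the same in both libraries in 8, and by the second quantifier in all 9. The shares leave out paralogs outside the 38, such as Slc2a9 (6.55 and 3.69 TPM) and Pfkfb2 (4.78 and 3.51 TPM). Slc16a6 (45.08 and 24.3 TPM) and Slc16a7 (17.55 and 9.44 TPM), also outside the 38, both stood above the leading Slc16a3. On protein-coding transcripts alone the mean share of Pfkp was 57.6% and that of Hk3 68.1%.

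**Figure D2:**
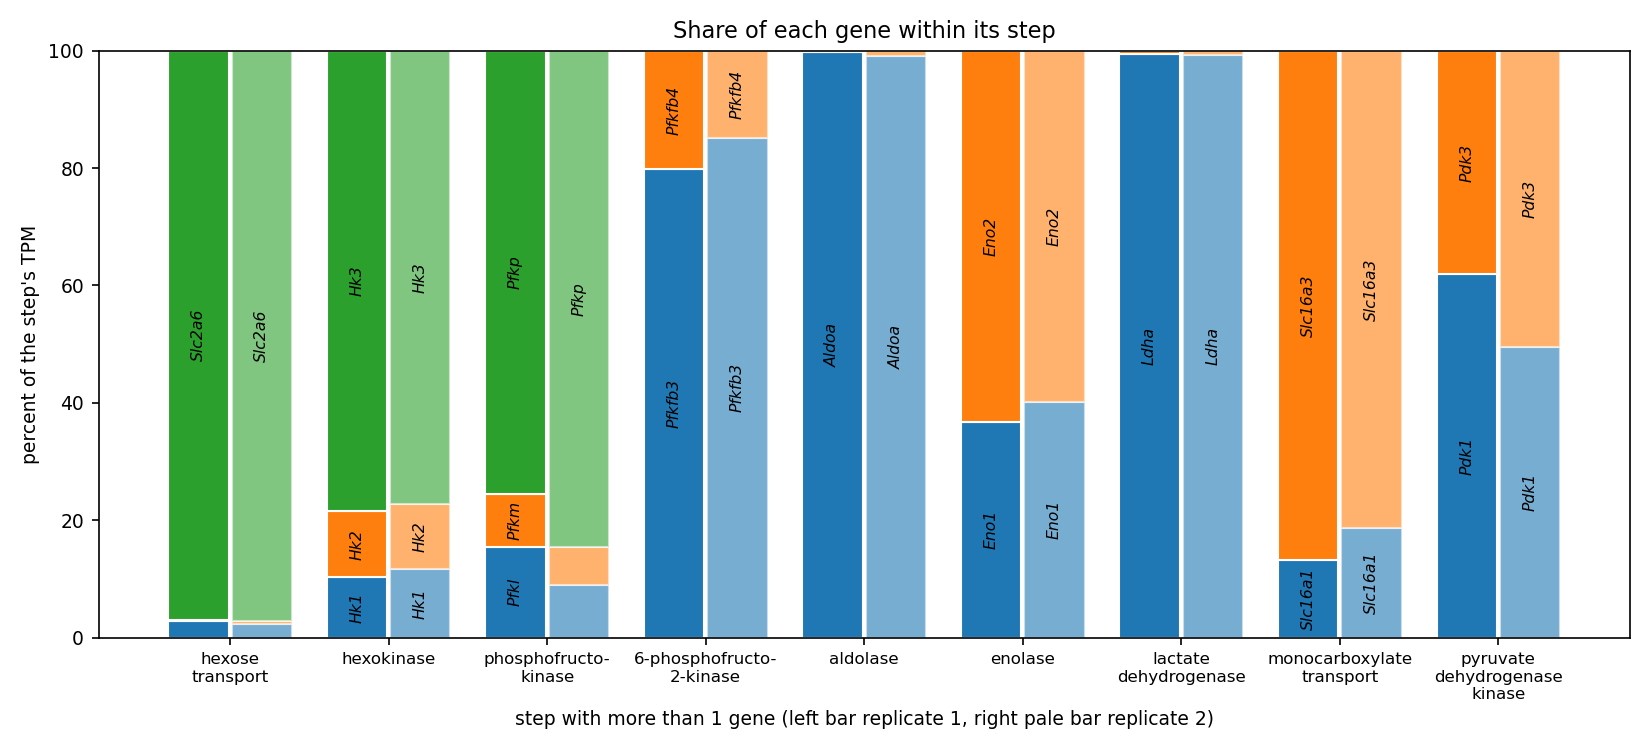
Percent of each step's TPM (vertical axis) held by each of its genes, for the 9 steps with more than 1 gene, in replicate 1 (left bar) and replicate 2 (right, pale bar). Slc2a6, Aldoa and Ldha fill nearly all of their steps, and only pyruvate dehydrogenase kinase changes its leading gene between the bars.

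The pentose phosphate genes were all present. Pgd, which makes NADPH from 6-phosphogluconate, was highest with 33.2 and 24.9 TPM. G6pdx, the entry enzyme that makes the first NADPH, had 19.1 and 15.1 TPM, and the lactonase gene Pgls between them in the pathway 4.72 and 3.70 TPM. In the non-oxidative branch, which shuffles carbon between sugars, Tkt had 18.8 and 10.3 TPM, Taldo1 13.0 and 6.32 TPM and the isomerase gene Rpia 1.43 and 1.02 TPM. The order of the 6 was kept in both libraries. Taldo1 has 1 near-identical copy, which held 13.2% and 10.7% of the expected counts on the pair. G6pdx shares its locus with Ikbkg on the opposite strand, to which 828 and 556 expected counts were assigned, against 940 and 634 for G6pdx.

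Hif1a (ENSMUSG00000021109.13, chromosome 12, 73901375 to 73947530) stood at 16.9 TPM in replicate 1 and 15.0 in replicate 2. The prolyl hydroxylase gene Egln1 had 2.63 and 1.64 TPM. Its paralog Egln2, which is outside the 38 genes, stood higher at 12.67 and 8.80 TPM. Egln3, an oxygen-sensing hydroxylase that is itself a common HIF target, was not detected in replicate 1 (0 counts, which allows up to 0.0465 TPM) and had 1 count in replicate 2. HIF targets outside glycolysis differed widely. Vegfa, the vascular growth factor gene, had 54.3 and 49.2 TPM, rank 5 of the 38 genes by mean level. Bnip3, a mitophagy receptor gene, had 1.08 and 1.10 TPM.

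Other genes of these pathways were lower as a rule. From 4 lists of 81 further genes, 47 stood at 1 TPM or above in both libraries, and 10 at 10 TPM or above. Of 30 genes of glycolysis, glycogen and gluconeogenesis 16 reached 1 TPM, led by Adpgk, an ADP-dependent glucokinase gene (11.0 and 7.88 TPM), and Ugp2, which makes UDP-glucose (10.9 and 7.84 TPM). Fbp1, Fbp2 and Pck1, genes of gluconeogenesis, had 0 expected counts in both gene tables, while the second quantifier gave Pck1 5.07 and 25.0 counts and the others 0. Of 22 genes of sugar and monocarboxylate transport and pyruvate entry 15 reached 1 TPM. Bsg, the chaperone of monocarboxylate transporters, had 48.4 and 28.5 TPM and the sugar phosphate transporter gene Slc37a2 40.6 and 34.2 TPM. Slc2a4, the insulin-responsive GLUT4, Slc2a10 and the testis gene Ldhc had 0 expected counts in both gene tables. By the second quantifier Slc2a10 had 12.3 and 9.65 counts, Ldhc 0 and 2, and Slc2a4 0. Of 8 further pentose phosphate genes 4 reached 1 TPM, with the epimerase gene Rpe at 14.0 and 9.00 TPM, the endoplasmic reticulum enzyme gene H6pd at 6.63 and 3.97 TPM and Tktl2 at 0 counts. Of 21 HIF pathway genes and hypoxia targets 12 did, led by the lipid droplet gene Plin2 (87.8 and 50.4 TPM) and the collagen prolyl hydroxylase gene P4ha1 (49.0 and 18.1 TPM).

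Nuclear RNA holds unfinished and alternative transcripts beside mature messages, so each gene was split by the class that the annotation gives its transcripts. Over the 31 genes of at least 1 TPM, a median of 80.3% of TPM in replicate 1 and 78.3% in replicate 2 lay on protein-coding transcripts. For 8774 expressed protein-coding genes the medians were 81.1% and 78.9%. Transcripts annotated as retained intron held a median of 6.12% and 5.89% of TPM, against 7.93% and 8.53% over those 8774 genes. By counts the order was the other way, with 3.29% and 3.60% against 2.66% and 2.98%. The second quantifier gave 11.69% and 14.95% against 11.79% and 13.42%. Whether the 31 genes held less retained-intron RNA than other genes was thus not settled. In both libraries 3 of the 31 genes (9.68%) had under 50% of their TPM on protein-coding transcripts, a share near the 13.7% of expressed protein-coding genes. They were Slc2a6, Pfkp and Tkt. By the second quantifier the number was 6 (Hk3, Pfkp, Pfkfb3, Tkt, Taldo1 and Rpia), of which Pfkp and Tkt were common to both. By counts it was 4 (Slc2a6, Pfkp, Eno2 and Tkt). The share over all expressed genes was not computed for either, so these numbers have no background. The quantifiers differed most plainly for Rpia, with a coding share of 97.2% and 90.2% by TPM but 33.9% and 30.4% by the second quantifier.

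**Figure D3:**
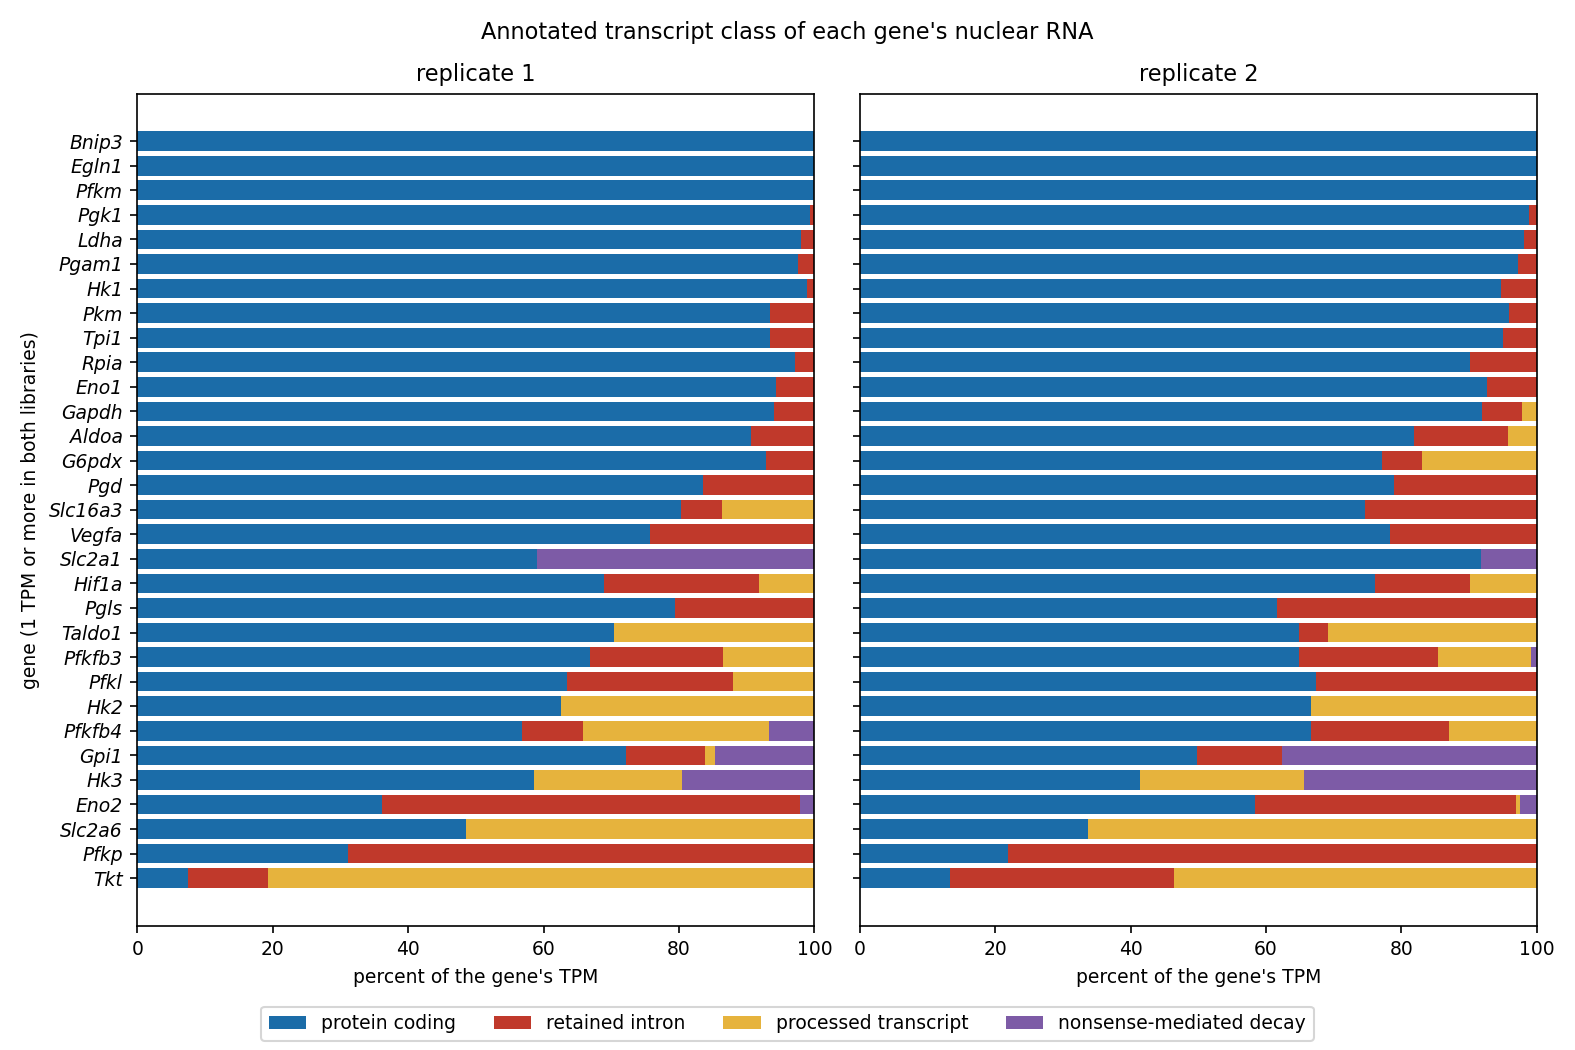
Percent of each gene's TPM (horizontal axis) by annotated transcript class, for the 31 genes of at least 1 TPM, in replicate 1 (left) and replicate 2 (right). Genes are ordered by mean protein-coding share, from Tkt, Pfkp and Slc2a6 at the bottom to genes such as Pfkm and Egln1 at 100%.

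Slc2a6 RNA was spread over 3 transcripts. The coding Slc2a6-201 held 44.2% of its TPM in replicate 1 and 31.2% in replicate 2 (35.8% and 27.2% by the second quantifier). Slc2a6-205, with the held intron printed above, held 27.8% and 42.4% (26.7% and 39.2%). Slc2a6-203, which holds 2 introns of 539 and 249 bases and skips a 163-base exon, had 23.1% and 21.6% (18.4% and 18.2%). The leading transcript therefore differed between the libraries, and both quantifiers gave the intron-holding forms together a larger share in replicate 2. Transcripts that span a whole intron of a coding transcript held 50.8% and 64.1% of Slc2a6 TPM.

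Hk3 was also split. Hk3-208, a coding form that skips another 120-base exon (chromosome 13, 55019328 to 55019447), led with 43.6% and 37.3% of TPM (30.3% and 28.6% by the second quantifier). Hk3-204, annotated for nonsense-mediated decay, lacks the 56 bases shown above and held 19.6% and 34.3% (9.28% and 20.7%). The full-length coding Hk3-201 had 14.0% and 3.17% (17.1% and 6.06%). Hk3-205, a 639-base transcript that holds an intron, had 19.0% and 19.5% (23.0% and 27.1%), but only 3.60% and 3.73% of Hk3 expected counts. Hk3-204 took a larger and Hk3-201 a smaller share in replicate 2 by both quantifiers. Slc2a1 also differed between the replicates, with 40.9% and 8.23% of its TPM on Slc2a1-204, a decay-annotated form that skips a 163-base exon (34.7% and 12.5% by the second quantifier).

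For Pkm, most coding RNA carried the M2 exon. Of protein-coding Pkm TPM 84.2% in replicate 1 and 93.3% in replicate 2 lay on the transcript with the M2 exon, 88.7 ± 6.43% (SD, n = 2). The transcript with the M1 exon held 14.6% and 5.52%. By the second quantifier the M2 shares were 71.1% and 78.8% and the M1 shares 13.6% and 6.71%, with the rest on transcripts with neither. The ratio of M2 to M1 was 5.77 and 16.9 from the transcript table and 5.23 and 11.7 from the second quantifier. M2 exceeded M1 in each library by both, and the size of that excess differed between libraries.

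Transketolase gave the lowest coding share. Tkt-209, a processed transcript of 14 exons that begins at an exon inside the gene (chromosome 14, 30557609 to 30557693), held 80.7% of Tkt TPM in replicate 1 and 53.6% in replicate 2, and 78.9% and 51.0% by the second quantifier. The coding Tkt-201 had 7.43% and 13.4% (6.43% and 7.08%). Transcripts that start at the first exon of the coding forms held 10.8% and 19.4% together (11.0% and 29.6%). The transcript with the internal first exon led in both libraries by both methods.

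For Pfkp, transcripts annotated as retained intron held 68.9% and 78.1% of TPM, and 56.5% and 55.3% by the second quantifier. Pfkp-212, whose 16 exons include a long exon of 7108 bases, was the largest in the transcript table with 24.3% and 31.2%. By the second quantifier it had 13.1% and 14.5%, below Pfkp-204 (14.0%) in replicate 1. Transcripts that span a whole intron of a coding transcript held 0.0% of Pfkp TPM in both libraries. The coding Pfkp-201 had 17.6% and 8.53% (12.5% and 4.39%). Pfkp overlaps Pitrm1 on the opposite strand, which had 624 and 512 expected counts against 1739 and 1470 for Pfkp. Eno2 had 61.8% and 38.5% of TPM on retained-intron transcripts (52.0% and 46.4%), among them Eno2-203, which holds an intron (24.6% and 21.4%; 14.6% and 19.9%).

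Some class shares came from short transcripts, to which length correction gives weight. Hk2-202, a processed transcript of 594 bases, held 37.5% and 33.3% of Hk2 TPM, but processed transcripts held only 4.45% and 3.57% of Hk2 counts. For Pfkfb3 the coding share was 66.8% and 64.8% by TPM and 94.9% and 94.4% by counts. Pgls went the other way, with 20.6% and 38.4% of TPM but 48.4% and 69.5% of counts on retained-intron transcripts. Ldha, Pgk1 and Pgam1 were above 97% protein coding by TPM in both libraries. Hif1a RNA was assigned to transcripts with several annotated first exons, and start sites were not measured. Its transcripts from the exon at 73907904 to 73908324 held 55.2% and 51.5% of TPM, and Hif1a-202, which begins upstream, 13.7% and 24.7% (8.71% and 7.67% by the second quantifier).

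Counting only protein-coding transcripts changed parts of the order given above. Hk3 fell from the top in replicate 2, with 130 TPM in replicate 1 and 42.0 TPM in replicate 2, where Pkm (89.1 and 67.6 TPM) and Gapdh (64.1 and 54.2 TPM) stood above it. Slc2a6 had 99.8 and 33.4 TPM, which put it at rank 2 in replicate 1 and rank 5 in replicate 2, and led its step with 96.2% and 92.4%. Hk3 led the hexokinases with 72.8% and 63.4%, and Pfkp the phosphofructokinases with 55.4% and 59.8%.

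The enolase order turned in the transcript table but not by the second quantifier. On coding transcripts Eno1 had 16.3 and 12.3 TPM and Eno2 10.8 and 11.6 TPM, so Eno1 led with 60.2% and 51.5%. By the second quantifier Eno2 stayed slightly above, at 5.72 and 8.44 TPM against 4.96 and 8.31 TPM. Which enolase gene gave more coding RNA was thus not settled. Tkt RNA on transcripts annotated as protein coding was only 1.40 and 1.37 TPM, a level like that of Rpia (1.38 and 0.92 TPM). Tkt-209, which has 14 exons as Tkt-201 does, lay outside that class with 15.2 and 5.50 TPM. Whether Tkt-209 can be translated was not examined. Pgd stayed the highest pentose phosphate gene with 27.7 and 19.7 TPM.

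**Figure D4:**
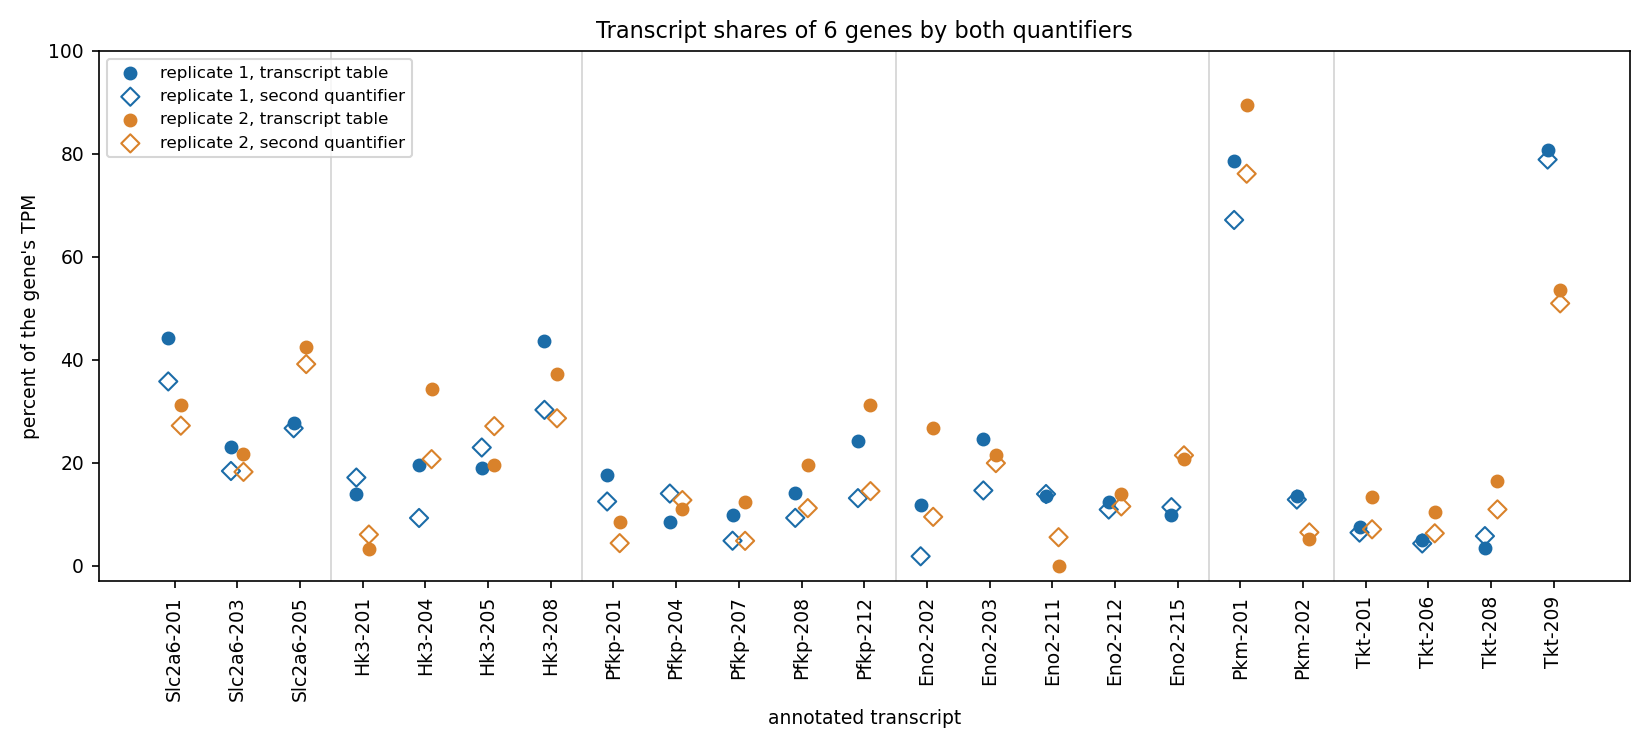
Percent of the gene's TPM (vertical axis) on each transcript that held at least 10% in either library, for 6 genes, in replicate 1 (blue) and replicate 2 (orange), from the transcript table (filled circles) and the second quantifier (open diamonds). Pkm-201, which carries the M2 exon, and Tkt-209 lead their genes in all 4 estimates, while Slc2a6-201 leads Slc2a6-205 in replicate 1 and trails it in replicate 2.

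The replicates were compared on counts scaled by TMM, which removes a shift common to most genes. Of the 38 genes 36 averaged at least 10 counts, and Ldhb and Egln3 did not. Of the 36, 1 (2.78%) was over 2-fold apart, against 8.45% of 14052 genes tested. It was Aldoc, higher in replicate 2 (log2 ratio 1.81 on 7 and 17 counts). Over all genes tested 4.18% were over 2-fold higher in replicate 2 and 4.28% in replicate 1. The median log2 ratio, replicate 2 over replicate 1, was -0.04 for the 36 and -0.02 for all genes tested. Values were below 0 for 19 genes and above 0 for 17.

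Most of the hexose transporter and hexokinase genes lay lower in replicate 2. All 3 hexokinase genes did, with log2 ratios of -0.75 for Hk3, -0.57 for Hk2 and -0.56 for Hk1, and so did Slc2a6 (-0.62) and Slc2a1 (-0.62), but not Slc2a3 (0.16). Pdk1 (-0.67), Taldo1 (-0.65) and Pfkl (-0.63), from other steps, lay as low. Hif1a (0.35), Vegfa (0.36) and Pfkp (0.35) lay higher. Pkm (0.03), Eno2 (0.00) and G6pdx (0.02) were close to 0. Apart from Aldoc, each of the 36 lay within the 5th to 95th percentile of all genes tested, from -0.94 to 0.93. The difference in Hk3 and Slc2a6 moved with RNA input and depth, both lower in replicate 2, and their part in it was not tested.

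**Figure D5:**
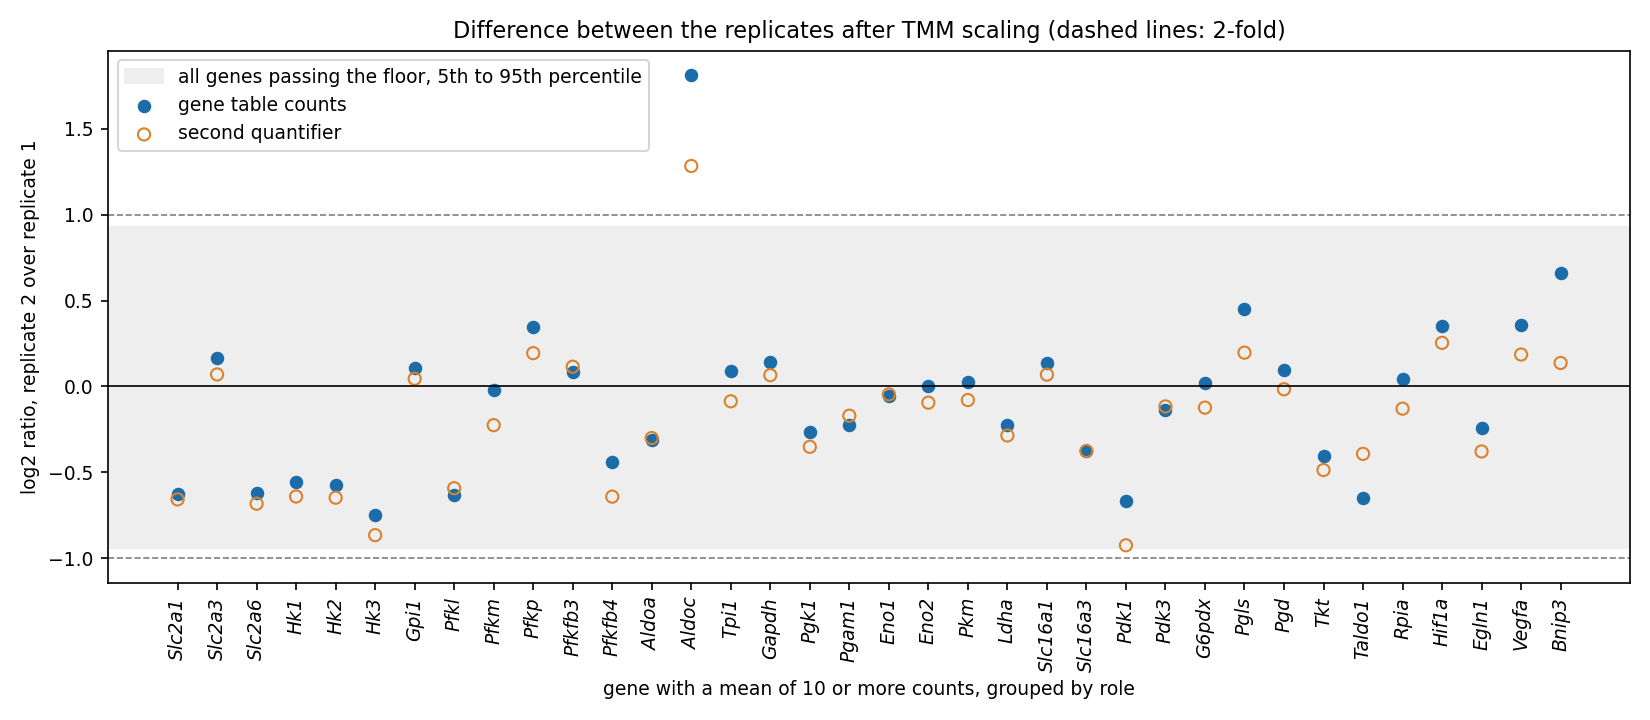
Log2 ratio of replicate 2 over replicate 1 (vertical axis) after TMM scaling for the 36 genes that averaged at least 10 counts, from gene table counts (filled) and the second quantifier (open), with the 5th to 95th percentile of all 14052 genes tested in gene table counts in grey and 2-fold as dashed lines. Only Aldoc lies beyond 2-fold, and the 3 hexokinase genes lie below 0.

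The promoters were read for the core of the hypoxia response element, the sequence HIF1A binds, written here as ACGTG or GCGTG on either strand. CACGTG then counts once on each strand. Windows ran from 250 bases before to 50 bases after each RefSeq start (GRCm38.p6), and 37 of the 38 genes had at least 1 (not Slc2a3). A match stood in 42 of the 52 windows (80.8%), against 14380 of 32851 windows of all genes (43.8%). The windows of the 38 genes were also richer in G and C (median 61.0% against 52.7%) and in CpG (median 20 against 7), and the motifs contain CpG, so base composition moved with the match share and its part was not tested. Genes with a match had a median of 14.9 TPM and the 3 without (Gpi1, Tpi1, Eno2) 15.95 TPM. A match is only these letters and does not show binding.

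The bases before the start are shown for 4 genes picked after the values were seen, the 2 most abundant ones and 2 textbook HIF1A targets. Each holds 250 bases and capitals mark the matches. They are Hk3 (chr13:55021386-55021635, minus strand), Slc2a6 (chr2:27027999-27028248, minus strand), Pgk1 (chrX:106186850-106187099, plus strand) and the upstream of the Ldha windows (chr7:46845554-46845803, plus strand). Hk3 has 1 match, Slc2a6 4, Pgk1 2 and Ldha 5, including CACGTG at more than 1 place.
Hk3 promoter: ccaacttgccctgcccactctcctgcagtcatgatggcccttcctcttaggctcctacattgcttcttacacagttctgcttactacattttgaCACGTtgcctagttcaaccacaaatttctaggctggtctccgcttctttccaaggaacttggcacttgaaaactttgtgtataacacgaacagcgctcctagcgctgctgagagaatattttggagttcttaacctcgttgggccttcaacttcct
Slc2a6 promoter: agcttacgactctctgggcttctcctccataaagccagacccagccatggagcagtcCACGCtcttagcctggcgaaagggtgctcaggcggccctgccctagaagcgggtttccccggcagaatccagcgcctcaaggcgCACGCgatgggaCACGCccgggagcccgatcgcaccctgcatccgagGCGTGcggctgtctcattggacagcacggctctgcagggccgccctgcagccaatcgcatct
Pgk1 promoter: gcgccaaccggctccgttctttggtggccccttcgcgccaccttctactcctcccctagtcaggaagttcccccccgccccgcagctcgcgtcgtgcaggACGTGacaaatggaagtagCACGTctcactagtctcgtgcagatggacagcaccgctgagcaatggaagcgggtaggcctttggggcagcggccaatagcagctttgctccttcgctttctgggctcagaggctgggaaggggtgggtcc
Ldha promoter: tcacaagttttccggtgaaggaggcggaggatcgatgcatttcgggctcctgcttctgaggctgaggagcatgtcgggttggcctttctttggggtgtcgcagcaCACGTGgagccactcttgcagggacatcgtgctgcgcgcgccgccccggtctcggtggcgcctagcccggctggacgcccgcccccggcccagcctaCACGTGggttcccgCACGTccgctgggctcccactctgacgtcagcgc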

How the data were processed

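Total RNA depleted of ribosomal RNA was measured in 2 nuclear libraries of 1 group. Labels name the fraction nuclear in the source field and nucleoplasmic in the description. Per the file headers, the authors deposited expected counts and TPM in gene and transcript tables of RSEM format, with a posterior mean TPM. Estimated counts and TPM were also deposited in transcript tables of kallisto format, called the second quantifier. Per the readme files, reads were assigned on mm10 with GENCODE M21. No aligner, version or strand setting is given in the sources used here, so reads of genes that overlap on opposite strands (14 of the 38) may not be separable. The expected counts divide multi-mapping reads among copies.

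IDs that share a symbol were summed. Rows naming no annotated gene held 1.19% and 0.215% of expected counts and were left out. Expected counts were rounded and scaled by TMM in edgeR 4.0.16 (R 4.3.3), with 0.5 counts added for log2 ratios and a floor of a mean of 10 counts. DESeq2 1.42.0 size factors were an alternative. Near-identical copies were found with blastn 2.17.0 (90% identity or more over 80% or more of the length, at least 200 bases). Other steps used Python 3.11.15, numpy 2.4.6 and pandas 2.3.3. The computation of the replicate ratio was tried on simulated counts with planted changes, which does not test the ratios of these libraries. With 1 group there is no contrast and no test; values are given per library, and SDs over 2 libraries are imprecise.

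The genes and lists were chosen with earlier results of these data known. By rule all 38 genes are accounted for, the 2 highest and the undetected genes of each pathway list are named (1 is not reported here), and transcripts are named at 10% or more of a gene of 5 TPM or more; Slc2a1-204 and the promoters were picked after values were seen.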

Additional observations from a re-analysis of the deposited data

How the results depend on the processing

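The 38 genes were recomputed with the second quantifier, the posterior mean TPM, expected counts, other scalings and floors, and each library alone. The number at 1 TPM in both libraries ran from 22 (floor of 5 TPM) to 35 (TPM rescaled over nuclear-encoded protein-coding genes), and was 29 with the second quantifier. The median level was 6.52 TPM with the second quantifier and 63.3 TPM after that rescaling, against 14.7 TPM. The share of protein-coding TPM became 0.323% with expected counts. The number over 2-fold apart between replicates became 8 with deposited TPM not centred and 2 with no count floor beyond 1 count, where Egln3 joined on 0 and 1 counts. For these 2 settings the share over all genes was not computed, so neither number has a background. TPM that is not centred also keeps the shift between the libraries. The median log2 ratio became -0.58 with deposited TPM. The median share of the leading gene over the 9 steps was 82.2%. It became 87.1% with the second quantifier and 79.4% on protein-coding transcripts alone in the transcript table. There Eno1 stood above Eno2, but not by the second quantifier. The restriction to protein-coding transcripts was chosen after seeing the data. The Pkm M2 share became 74.9% with the second quantifier. The retained-intron median was 6.01% and became 13.3% with the second quantifier, 3.45% with expected counts and 0.0% over transcripts that span a whole intron, an alternative chosen after seeing the data. In replicate 1 and replicate 2 alone, in that order, the number at 1 TPM was 32 and 31, the median level 17.0 and 12.4 TPM, the share 0.397% and 0.369%, the leading gene's share 79.8% and 84.6%, the M2 share 84.2% and 93.3% and the retained-intron median 6.12% and 5.89%. The cause of these moves was not tested, apart from the floors and scalings, which act by construction. The leading gene of each step was the same with the second quantifier in all 9 steps. No paired analysis was possible because there is only 1 group. Depth limits Aldoc, Ldhb and Egln3, each with under 20 counts in either library.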
